A study of Mus musculus with 24 samples.

Results

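Egr1, Egr2, Egr3, Ier2, Ier3, Ier5, Myc and Srf, 8 of the 55341 genes in a table of RNA-seq counts, were picked by name as immediate early genes together with a regulator of that class, and were followed across 12 groups of libraries. All 8 had a row in the table and 7 passed the filter on low counts; Egr1 did not. The cells were mouse 3134 mammary adenocarcinoma cells carrying an inducible short hairpin RNA against NIPBL, the protein that loads the cohesin ring onto chromatin. Every group was kept for 3 days in charcoal-stripped serum, which removes steroid hormones, and then received ethanol, the vehicle, or 100 nM dexamethasone, a synthetic glucocorticoid, for 2 hours. All 12 groups carried the hairpin; the empty vector (EV) was measured without IPTG and with 1 mM IPTG, which switches the hairpin on, and cells with wild-type NIPBL (WT) or the mutants called C1, C2 and C1-C2 were measured with IPTG only. The labels do not say what the mutants change, each construct is represented by 1 line, and no group had IPTG without the hairpin, so an effect of the hairpin or of IPTG itself cannot be told apart from loss of NIPBL. Each group had 2 libraries, which the series calls biological replicates without saying how the cultures were separated, which limits what the p-values cover to the spread seen between libraries of a group.

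Immediate early genes are transcribed within minutes of a growth factor or stress signal, without new protein synthesis, because their activators are already in place. SRF is the constant partner in many of them: it sits on CArG boxes in their promoters and is switched on through ERK-phosphorylated ELK cofactors or through actin-sensing MRTF cofactors. The EGR proteins are zinc-finger transcription factors held in check by the corepressors NAB1 and NAB2, IER2 and IER5 are nuclear regulators of transcription, IER3 is a stress-inducible regulator of survival that is a classical NF-kB target, and MYC pairs with MAX on CACGTG elements to raise ribosome and metabolic genes. Glucocorticoids act through a nuclear receptor that induces some genes of this class and represses others.

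The labels were checked first. Nipbl ranged from 48.0 to 186 CPM (counts scaled to a common effective library size) and was 2.84-fold lower with IPTG in ethanol and 2.75-fold lower in dexamethasone in EV cells. Nipbl RNA was not called higher in WT than in EV cells with IPTG: WT held 66.5 CPM against 63.8 in ethanol (edgeR adjusted p = 0.894) and 60.6 against 55.5 in dexamethasone (adjusted p = 0.509), where cells without IPTG held 181 and 153 (group means). The mutant lines held 50.5 to 64.8 CPM. Whether RNA of the constructs was counted under Nipbl is not given in the sources used here, so the counts do not show the added NIPBL. The glucocorticoid targets Per1 and Tsc22d3 ranged from 22.2 to 26.6 and from 9.95 to 14.1 CPM in the ethanol libraries, and from 269 to 308 and from 148 to 298 CPM in the dexamethasone libraries. Replicate 2 of C1-C2 in ethanol carries a treatment label that contradicts its title. It was grouped by title, and its Per1 and Tsc22d3 lie in the ethanol ranges just given. On the first principal component it lay at -35.7 with the other ethanol libraries, where the dexamethasone libraries lay at 35.5 to 41.2. Ethanol libraries held 32.5 to 42.7 M counts and dexamethasone libraries 45.0 to 72.9 M. The library names form separate blocks by treatment, so library batch and hormone cannot be told apart. GC-rich genes read lower in the ethanol libraries (the 25% of genes highest in GC content minus the 25% lowest, -0.28 to -0.14 log2) and higher in the dexamethasone libraries (0.06 to 0.29), and hormone results are therefore also given with each library's trend with GC content and gene length removed. Replicate 1 of WT in dexamethasone stood apart from its group in a principal component analysis. Although the label is adenocarcinoma, epithelial markers were mostly low. Epcam had no count in 24 of 24 libraries, Krt18 reached at most 0.0467 CPM, Cdh1 0.0808 and Krt8 0.767. Krt14 lay between 13.4 and 21.8 CPM. The mesenchymal markers were divided. Vim ranged from 3328 to 4458 CPM, Col1a2 from 1387 to 1845 and Fn1 from 1087 to 3297. Pdgfrb and S100a4 had medians of 149 and 51.2 CPM. Col1a1 ranged only from 0.400 to 2.05 CPM, and Thy1 had no count in 22 of 24 libraries.

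Proximal promoters are printed for the 4 members that the RefSeq promoter table (GRCm38.p6) holds, Egr2, Ier3, Ier5 and Srf, because CArG boxes are the element that defines SRF control and because Ier3 and Ier5 are the members with the largest hormone responses. Each window was searched on both strands for the CArG box, the NF-kB site, the MYC element CACGTG, the EGR element GCGTGGGCG, the glucocorticoid receptor palindrome AGAACANNNTGTTC and TATAAA. The bases below run 5′ to 3′ on the gene's strand, capitals mark matches, and positions count from the RefSeq start site.
Srf, chr17:46556176-46556412, minus strand: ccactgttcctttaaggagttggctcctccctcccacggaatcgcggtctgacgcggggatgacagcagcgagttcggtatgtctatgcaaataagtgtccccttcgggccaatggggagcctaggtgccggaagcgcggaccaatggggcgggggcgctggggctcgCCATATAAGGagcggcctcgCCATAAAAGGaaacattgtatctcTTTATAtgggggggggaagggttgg
Egr2, chr10:67537619-67537868, plus strand: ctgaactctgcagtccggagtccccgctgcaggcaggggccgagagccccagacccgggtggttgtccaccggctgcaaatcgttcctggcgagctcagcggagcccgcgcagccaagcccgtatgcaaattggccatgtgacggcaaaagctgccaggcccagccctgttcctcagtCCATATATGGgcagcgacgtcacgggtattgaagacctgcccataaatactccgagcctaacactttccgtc
Ier3, chr17:35821463-35821683, plus strand: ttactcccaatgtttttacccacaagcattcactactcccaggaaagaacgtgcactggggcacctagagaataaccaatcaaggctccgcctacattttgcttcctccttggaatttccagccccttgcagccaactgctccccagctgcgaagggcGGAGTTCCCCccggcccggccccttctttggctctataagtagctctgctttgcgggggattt
Ier5, chr1:155099637-155099886, minus strand: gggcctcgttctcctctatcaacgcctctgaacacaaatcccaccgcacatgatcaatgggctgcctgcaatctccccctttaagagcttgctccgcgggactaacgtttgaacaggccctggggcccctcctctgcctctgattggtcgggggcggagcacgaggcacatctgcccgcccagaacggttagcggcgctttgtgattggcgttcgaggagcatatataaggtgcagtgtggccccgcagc
The Srf window holds 2 CArG boxes and, at -38, a TATAAA match on the opposite strand, which reads TTTATA as printed. The Egr2 window belongs to 1 of 5 RefSeq start sites of that gene and holds a CArG box at -72. In all, 4 of the 5 Egr2 windows hold a CArG box, but they do not hold 4 separate boxes. The windows of start sites 67537869, 67537870 and 67537930 overlap and share the same box, at -72, -73 and -133. The window of the most upstream start site has no CArG box, and has CACGTG at -27 and 2 overlapping NF-kB matches instead. The Ier3 window holds an NF-kB site at -92 and no CArG box, and the Ier5 window holds none of the 6 motifs. Over 32851 windows of up to 250 bases before a start site, 1.47% hold a CArG box, 7.25% an NF-kB site, 12.4% TATAAA, 6.02% CACGTG, 0.536% GCGTGGGCG and 0.0304% AGAACANNNTGTTC. These are matches of letters and carry no measurement of binding.

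Levels differed widely among the members. Per kilobase of exon, which allows genes to be compared, the median over the 24 libraries was highest for Ier3 at 46.3 CPM per kb, followed by Myc at 24.2, Srf at 18.6, Ier5 at 13.01 and Ier2 at 10.03. The EGR genes were far lower, with Egr3 at 0.9001 and Egr2 at 0.168 CPM per kb. Egr2 rested on 9 to 55 counts per library, so its values are the least precise of those tested.

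Egr1, the best known member of the EGR family, was next to absent. The whole gene (mm10, chr18:34859823-34864984) collected 3 counts among the 1118 M counts of the 24 libraries, 1 in each of 3 libraries of 3 different groups, and 21 libraries were at 0. A limit of 3 counts corresponds to 0.0412 to 0.0922 CPM, depending on the library, and covers counting error only. Most of the neighbouring genes looked at were well read: Kdm3b lay between 85.8 and 102 CPM, Etf1 between 199 and 270 and Hspa9 between 509 and 672. Reep2, which lies between Kdm3b and Egr1, was low, at 0.128 to 0.554 CPM and 320 counts in all. No hormone or NIPBL comparison could be made for Egr1 at this depth.

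**Figure D1:**
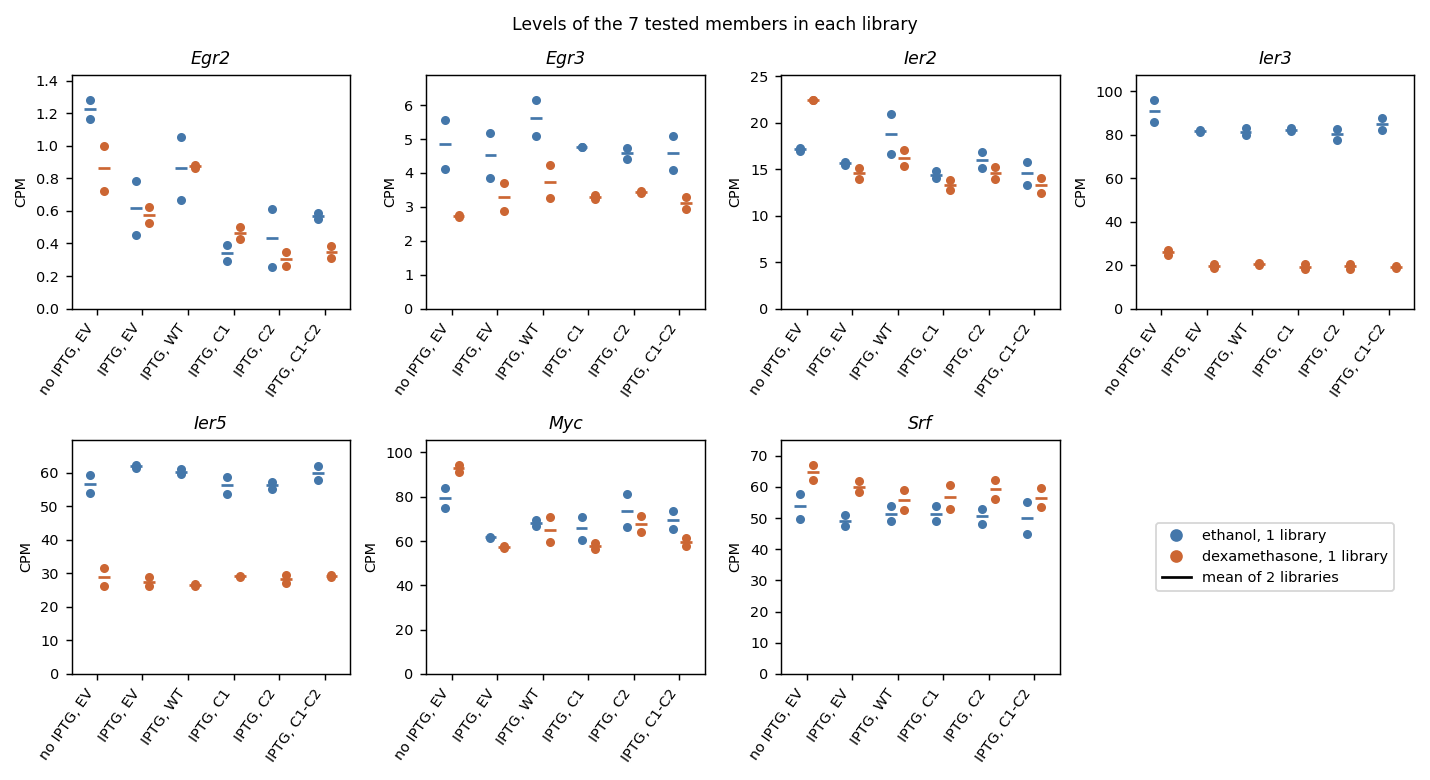
Level of each tested member (CPM, linear axis from 0) in the 12 groups; each point is 1 library and each dash the mean of 2. In the Ier3 and Ier5 panels all dexamethasone points lie below all ethanol points, and in the Myc and Ier2 panels the dexamethasone libraries without IPTG lie above all others.

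Dexamethasone lowered Ier3 and Ier5 in all 6 cell states and Egr3 in 4 of them, with no member raised in all states. In EV cells without IPTG 5 of 7 tested members passed the test (edgeR, adjusted p under 0.05), 3 lower and 2 higher, where 38.0% of all 16934 tested genes passed (18.2% lower, 19.8% higher). With IPTG, 3 of 7 passed in EV cells (2 lower, 1 higher; all genes 32.5%, 15.4% lower and 17.1% higher), 3 of 7 in WT (all lower; all genes 28.5%, 13.7% lower and 14.8% higher) and 3 of 7 in C1 (all lower; all genes 32.2%, 15.2% lower and 17.0% higher). In C2 2 of 7 passed (both lower; all genes 32.5%, 15.7% lower and 16.8% higher) and in C1-C2 3 of 7 (all lower; all genes 32.3%, 15.8% lower and 16.4% higher). From 2 to 5 of 7 members were thus called, where 28.5% to 38.0% of all genes were. A list of 7 genes is too short to compare these shares closely. The members differed among themselves in the size and direction of the change. The median log2 change of the 7 members without IPTG was -0.52, against 0.01 for all tested genes.

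Ier3 (chr17:35821684-35822923, the gene downstream of the NF-kB site printed above) had the largest response. Without IPTG the EV cells held 96.1 and 85.9 CPM in ethanol and 27.1 and 24.7 in dexamethasone. With IPTG the EV cells held 82.2 and 81.1 CPM in ethanol and 18.6 and 20.5 in dexamethasone. Over all states the 12 ethanol libraries ran from 77.5 to 96.1 CPM (median 82.4) and the 12 dexamethasone libraries from 18.4 to 27.1 (median 20.2), so the treatments did not overlap. How many of all genes are separated between treatments in this way was not counted. The log2 fold change was -1.82 ± 0.07 (SE) without IPTG (edgeR adjusted p = 2.00e-16), -2.06 in EV with IPTG, -1.98 in WT, -2.09 for C1, -2.04 for C2 and -2.15 for C1-C2. These are falls of 3.52- to 4.44-fold, and with the GC and length trend removed the change ran from -1.99 to -2.28. Since the RNA comes from whole cultures, less RNA per cell and fewer expressing cells cannot be told apart.

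Ier5 (chr1:155096361-155099636) fell about 2-fold in every state. Ethanol libraries ran from 53.7 to 62.3 CPM (median 58.9) and dexamethasone libraries from 26.2 to 31.5 (median 28.9), again without overlap. In EV cells without IPTG the level went from 59.2 and 54.1 to 31.5 and 26.2 CPM, a log2 change of -0.98 ± 0.07 (SE; edgeR adjusted p = 6.55e-11). The other states gave -1.17 in EV with IPTG, -1.18 in WT, -0.95 for C1, -0.99 for C2 and -1.04 for C1-C2. The calls of Ier3 and Ier5 stood in each of the 6 states under every alternative run, with any 1 library left out included.

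Egr3 (chr14:70077203-70082614) was lower after hormone in each state, with medians of 4.77 CPM in 12 ethanol libraries (3.85 to 6.16) and 3.28 CPM in 12 dexamethasone libraries (2.71 to 4.22). Without IPTG it went from 4.11 and 5.57 to 2.71 and 2.77 CPM, a log2 change of -0.81 ± 0.18 (SE; edgeR adjusted p = 0.000826). It also passed in WT (-0.59, adjusted p = 0.0104), C1 (-0.54, adjusted p = 0.0195) and C1-C2 (-0.55, adjusted p = 0.0179). In EV cells with IPTG the change was -0.45 (adjusted p = 0.0583) and in C2 -0.42 (adjusted p = 0.0723); with the GC and length trend removed both passed, at -0.54 (adjusted p = 0.0285) and -0.50 (adjusted p = 0.0399). In EV with IPTG Egr3 also passed without ethanol replicate 1 (-0.66, adjusted p = 0.0227) or dexamethasone replicate 2 (-0.64, adjusted p = 0.0352) and with low-count genes kept, and in C2 when only those groups were fitted. The calls in the WT and mutant lines were fragile. Egr3 in WT missed the threshold without ethanol replicate 2 (-0.47, adjusted p = 0.127) or dexamethasone replicate 1, the library that stood apart (-0.41, adjusted p = 0.152), and when only the WT groups were fitted (adjusted p = 0.0597). In C1 it missed without any 1 of the 4 libraries (adjusted p = 0.0667 to 0.101). In C1-C2 it missed without ethanol replicate 2, the library with contradictory labels (-0.39, adjusted p = 0.214), or dexamethasone replicate 1 (-0.47, adjusted p = 0.136).

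Egr2 (chr10:67535475-67542188) passed in no state. Its log2 change ran from -0.72 in C1-C2 to 0.46 in C1, with standard errors of 0.31 to 0.40 that exceed those of every other tested member.

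Ier2 (chr8:84661331-84662852) was called higher in EV cells without IPTG and in no other state. Its level was 17.3 and 17.0 CPM in ethanol and 22.5 and 22.5 in dexamethasone, a log2 change of 0.39 ± 0.10 (SE; edgeR adjusted p = 0.00248). In EV cells with IPTG it was 15.5 and 15.8 CPM in ethanol and 14.0 and 15.1 in dexamethasone (-0.10, edgeR adjusted p = 0.476). The WT and mutant lines gave -0.12 to -0.22 with none called. In WT Ier2 was called lower without ethanol replicate 1 (-0.40) and with low-count genes kept. With the GC and length trend removed the rise without IPTG shrank to 0.12 (adjusted p = 0.400), while Ier2 was called lower in EV with IPTG (-0.30), WT (-0.32), C2 (-0.36) and C1-C2 (-0.30). Ier2 has a GC content of 60.9% in its longest transcript. The direction in which Ier2 is called after hormone therefore depends on that choice.

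Srf (chr17:46548329-46556175, which overlaps an antisense gene model whose reads cannot be separated because the strand setting of the counting is not given in the sources used here) rose slightly in EV cells. Without IPTG it was 49.8 and 57.8 CPM in ethanol and 62.2 and 67.1 in dexamethasone (0.27 ± 0.10 SE, edgeR adjusted p = 0.0493). With IPTG it was 47.4 and 50.8 CPM in ethanol and 58.3 and 61.8 in dexamethasone (0.29 ± 0.10 SE, adjusted p = 0.0402). Both calls were lost with the GC and length trend removed, where the change was -0.011 without IPTG and 0.10 with IPTG; Srf is the most GC-rich member, at 64.4%. Both were also lost with 1 library left out: without IPTG when ethanol replicate 1 (0.16, adjusted p = 0.384), dexamethasone replicate 1 (0.32, adjusted p = 0.0730) or dexamethasone replicate 2 (0.21, adjusted p = 0.242) was dropped, and with IPTG when any of the 4 was (adjusted p = 0.0763 to 0.249).

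Myc (chr15:61985391-61990374) did not pass in any state. The highest change was 0.22 in EV cells without IPTG, from 75.03 and 84.1 to 91.2 and 94.4 CPM (edgeR adjusted p = 0.0798), and the 5 states with IPTG lay between -0.07 and -0.23. These misses depended on the fit. Without IPTG Myc was called higher in 4 of 11 alternatives, among them low-count genes kept (adjusted p = 0.00281) and only these groups fitted (adjusted p = 0.0109), but not with DESeq2 (adjusted p = 0.0526), with the GC and length trend removed (0.07, adjusted p = 0.611) or with any 1 library left out. In C1-C2 it was called lower in 6 of 11, DESeq2 included (-0.24, adjusted p = 0.0434), though never with 1 library left out, and in C1 in 4 of 11. With the GC and length trend removed Myc was called lower in C1 (-0.31), C2 (-0.26) and C1-C2 (-0.34).

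**Figure D2:**
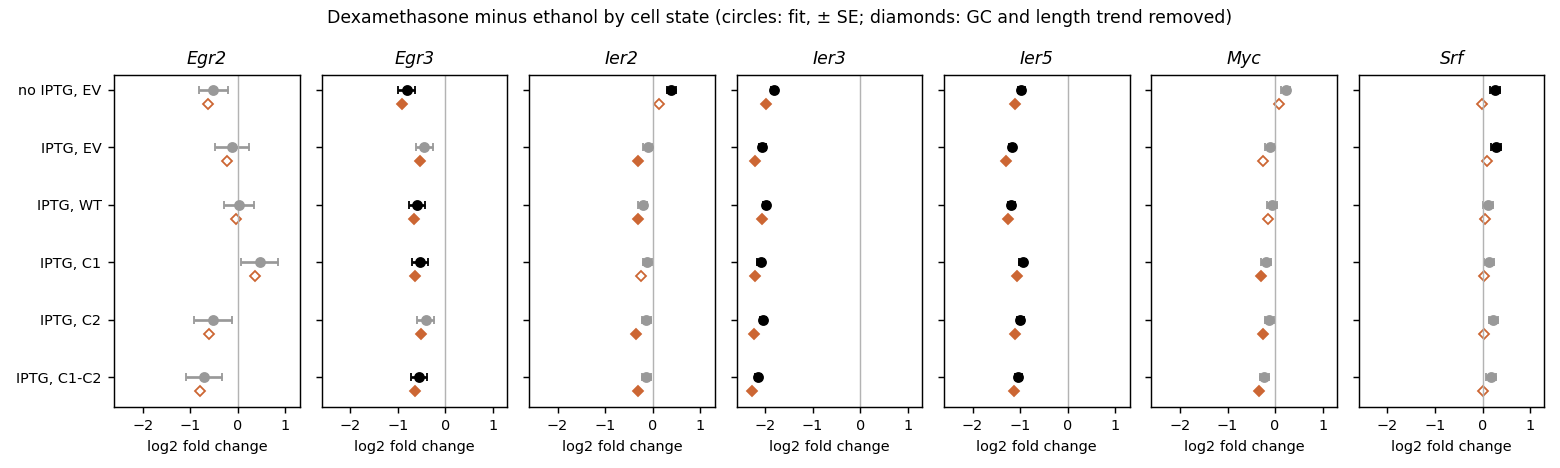
Log2 fold change, dexamethasone minus ethanol, of each tested member in the 6 cell states; circles with bars are the estimate ± SE (black where the adjusted p is under 0.05, grey where not) and diamonds the estimate with the GC and length trend removed (filled where called, open where not). Ier3 lies near -2 and Ier5 near -1 in every state, and Egr3 between -0.42 and -0.81. Every tested member moves to the left in every state when the trend is removed.

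The relatives of these genes answered the hormone in both directions. Of 26 other immediate early genes tested, 12 rose and 8 fell in EV cells without IPTG, and 9 rose and 9 fell with IPTG. Of all genes 19.8% rose and 18.2% fell without IPTG, and 17.1% rose and 15.4% fell with IPTG. The median change of the 26 was 0.43 and 0.03 log2, against 0.01 and 0.01 for all genes. Without IPTG the phosphatase gene Dusp1, a brake on MAP kinases, rose 13.8-fold and Zfp36, which encodes an mRNA-destabilising protein, 6.42-fold, while the polo-like kinase gene Plk2 fell 3.05-fold and Klf10 2.22-fold. The 8 falls became 4 without ethanol replicate 2 or dexamethasone replicate 1 and 5 without dexamethasone replicate 2. Both EGR corepressors fell, Nab2 by 0.63 and Nab1 by 0.29 on the log2 scale without IPTG, and both passed with IPTG as well (Nab2 -0.61, Nab1 -0.17); without IPTG both calls stood with any 1 library left out, and with IPTG only 1 of the pair did without ethanol replicate 1, ethanol replicate 2 or dexamethasone replicate 2. Among 10 ERK feedback genes 3 rose and 3 fell without IPTG: Dusp6 rose 1.83-fold, whereas Dusp4 fell 3.65-fold and Phlda1, a growth factor-responsive gene, 4.48-fold. With the GC and length trend removed the 3 rises became 1 and the 3 falls were again 3, where 12.3% of all genes rose and 10.4% fell. Of 5 SRF cofactors the MRTF gene Mrtfa rose by 0.35 and Elk3 fell by 0.23 on the log2 scale, the former not called with the trend removed (0.11, adjusted p = 0.235). Of 8 SRF-MRTF actin genes 3 rose and 1 fell, among them Actg1 at 2.08-fold and Zyx at 1.61-fold higher; the fall was lost without ethanol replicate 2 or dexamethasone replicate 2.

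Genes of MYC's own circle moved in both directions with hormone. Of 10 partners and rivals of MYC tested, 5 rose and 2 fell without IPTG, where 19.8% of all genes rose and 18.2% fell. The MYC antagonist genes divided: Mxd4 rose (0.61, edgeR adjusted p = 0.0254) and Mxi1 (-0.44) and Mnt (-0.31) fell. Mlxip, which encodes a partner of MLX, rose by 0.53 log2. The Mxd4 call was lost with the GC and length trend removed (0.54, adjusted p = 0.0615). Of 16 MYC targets 5 rose and 4 fell without IPTG and 3 rose and 3 fell with IPTG, but with the GC and length trend removed these counts became 1 and 0, and 1 and 1. The share of all genes called fell in that setting too, from 38.0% to 22.7% without IPTG and from 32.5% to 20.8% with IPTG. The rises in the partner list went from 5 to 2 in the same setting and without ethanol replicate 2, and to 3 without dexamethasone replicate 1; the 2 falls became 1 without ethanol replicate 2. The 5 rises among MYC targets without IPTG became 3 without ethanol replicate 2 or either dexamethasone replicate.

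IPTG in EV cells, which lowered Nipbl, went with lower Myc, Ier2 and Ier3 in dexamethasone. In that treatment 3 of 7 members passed, all lower, where 16.9% of all genes passed (8.49% lower, 8.36% higher). In ethanol 1 of 7 passed, lower, where 13.4% passed (6.24% lower, 7.16% higher). The median change of the 7 members was -0.13 in ethanol and -0.41 in dexamethasone, against -0.01 and 0.00 for all genes.

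Myc without IPTG in dexamethasone stood at 91.2 and 94.4 CPM and with IPTG at 57.8 and 56.7. The groups did not overlap, and the log2 change was -0.70 ± 0.10 SE (edgeR adjusted p = 5.99e-05). How many of all genes have these groups apart was not counted. In ethanol the levels were 75.03 and 84.1 CPM without and 61.6 and 62.0 with IPTG (-0.36 ± 0.10 SE, adjusted p = 0.0193). The ethanol call was lost without IPTG replicate 1 (adjusted p = 0.111), IPTG replicate 2 (adjusted p = 0.123) or no-IPTG replicate 2 (-0.28, adjusted p = 0.166).

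Ier2 in dexamethasone was at 22.5 and 22.5 CPM without IPTG and at 14.0 and 15.1 with it, a log2 change of -0.63 ± 0.10 (SE; edgeR adjusted p = 5.05e-05). In ethanol it was at 17.3 and 17.0 against 15.5 and 15.8 CPM, and the change of -0.13 did not pass (adjusted p = 0.448). Ier3 in dexamethasone, already lowered by the hormone, was at 27.1 and 24.7 CPM without IPTG and at 18.6 and 20.5 with it (-0.40 ± 0.07 SE, adjusted p = 0.00031). In ethanol it was at 96.1 and 85.9 against 82.2 and 81.1 CPM (-0.16, adjusted p = 0.127), which passed only with the GC and length trend removed (-0.20, adjusted p = 0.0373). The calls of Myc, Ier2 and Ier3 in dexamethasone stood under every alternative run, the removal of any 1 library included.

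Egr2 had the largest change in ethanol but missed the threshold there. It was at 1.28 and 1.17 CPM without IPTG and at 0.785 and 0.450 with it (-0.97 ± 0.33 SE, edgeR adjusted p = 0.0534). It passed with the GC and length trend removed (adjusted p = 0.0461) and without IPTG replicate 1 (-1.45, adjusted p = 0.0422), and was -0.64 without IPTG replicate 2. Egr3, Ier5 and Srf did not pass in either treatment, with log2 changes of -0.10 and 0.27, 0.13 and -0.07, and -0.13 and -0.11 in ethanol and dexamethasone.

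Whether the hormone response itself differed between EV cells with and without IPTG was tested as a difference of differences. With edgeR 0 of 7 members passed (0.171% of all genes did), 3 had an unadjusted p under 0.05, and DESeq2 called 0. The difference was -0.49 ± 0.14 (SE) for Ier2 (adjusted p = 0.305, unadjusted 0.00179), -0.25 ± 0.10 for Ier3 (adjusted p = 0.806) and -0.33 ± 0.14 for Myc (adjusted p = 0.90). Ier2 passed when genes with low counts were kept in the fit (adjusted p = 0.0248). The larger falls in dexamethasone than in ethanol are therefore not shown to differ.

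Of 16 MYC targets tested, 9 fell with IPTG in ethanol and 10 in dexamethasone, and 0 rose in either treatment; of all genes 6.24% and 8.49% fell. The medians of the 16 were -0.21 and -0.26, against -0.01 and 0.00 for all genes. Srm, which encodes spermidine synthase, went from 85.1 to 59.4 CPM in ethanol and from 110.8 to 70.6 in dexamethasone (group means; 1.43- and 1.57-fold lower), and Tfrc, the transferrin receptor gene, fell 1.39- and 1.35-fold. The count of falls depended on single libraries: in ethanol it was 3 without no-IPTG replicate 1 or IPTG replicate 2, 5 without no-IPTG replicate 2 and 7 without IPTG replicate 1, and in dexamethasone 5 without IPTG replicate 2 and 7 to 10 without any 1 of the others. With the GC and length trend removed it was 9 and 11. Calls over all genes also became fewer in both treatments with 1 library left out.

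Of the 26 other immediate early genes 6 fell and 3 rose in ethanol, and 15 fell and 2 rose in dexamethasone, with medians of -0.10 and -0.40. Of all genes 6.24% fell and 7.16% rose in ethanol, and 8.49% fell and 8.36% rose in dexamethasone. Plk2 fell 2.22-fold in ethanol and 2.38-fold in dexamethasone, and Ier5l, a relative of Ier5, 1.75- and 2.37-fold. The 15 falls became 10 without no-IPTG replicate 1 or IPTG replicate 2, 11 without IPTG replicate 1 and 13 without no-IPTG replicate 2, and the 2 rises 0 or 1; the 6 falls in ethanol became 4 or 5 and the 3 rises 0 to 3 with 1 library left out. Among 10 ERK feedback genes 5 fell in ethanol, and 3 fell and 2 rose in dexamethasone: Spry1, an inhibitor of receptor signalling, fell 1.92- and 1.90-fold and Phlda1 1.57- and 1.73-fold, while Dusp6 rose 1.29-fold in dexamethasone. The 5 falls became 3 without no-IPTG replicate 1 or IPTG replicate 2. In dexamethasone the 2 rises became 1 without replicate 2 of either group, and the 3 falls became 5 with the GC and length trend removed. Elk3 was the only 1 of 5 SRF cofactors called, higher by 0.38 and 0.46 log2, neither EGR corepressor passed, and of 8 actin genes 1 rose and 1 fell in each treatment. The actin rises were lost with any 1 library left out, and the falls with all but 1 of the libraries in ethanol and with 2 of the 4 in dexamethasone. Of 10 genes of the MYC network 1 rose in ethanol, Mxd4 at 0.68 log2, and 2 fell in dexamethasone, Mlxip by 0.16 and Max by 0.18 on the log2 scale. The Mxd4 call was lost with any 1 library left out, and the 2 falls became 0 or 1. Marker genes moved too: the summed epithelial markers were 18.8 to 20.2 CPM without and 14.8 to 15.4 with IPTG in ethanol, and 20.9 to 22.3 and 15.8 to 16.7 in dexamethasone, with Epcam at 0 throughout and 1 of 3 tested lower. Nearly all of this sum is Krt14, at 13.4 to 21.8 CPM over the 24 libraries. No other epithelial marker exceeded 0.779 CPM in any library. The summed mesenchymal markers were 8250 to 8346 CPM without and 7315 to 7344 with IPTG in ethanol, and 8716 to 8817 and 7124 to 7764 in dexamethasone. Gene by gene the calls differed from the sum. Of 6 mesenchymal markers tested, 3 were higher and 1 lower with IPTG in ethanol, and 2 higher and 1 lower in dexamethasone. The part of these shifts in the results was not tested.

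**Figure D3:**
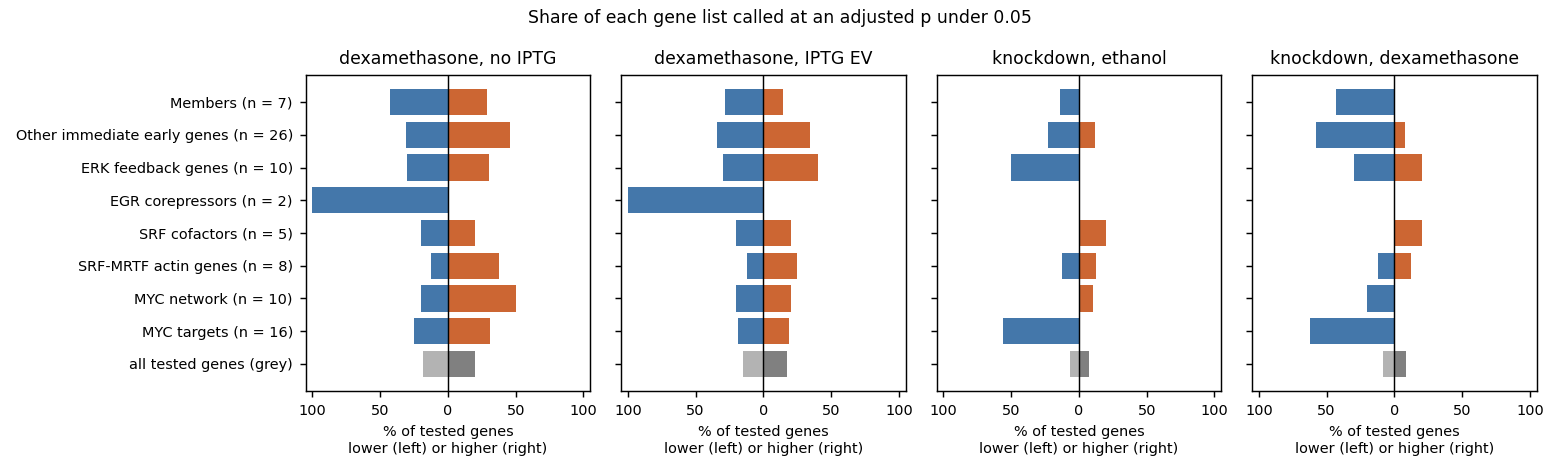
Percentage of the tested genes of each list called higher (right) or lower (left) at an adjusted p under 0.05 in 4 comparisons, with all tested genes in grey; the lists hold 2 to 26 genes. The members and the other immediate early genes lean to the left in the knockdown comparison in dexamethasone (3 of 7 and 15 of 26 lower), as do the MYC targets in both knockdown comparisons (9 and 10 of 16).

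Between the line labelled WT and EV cells with IPTG, no member passed the threshold, and Nipbl RNA did not differ beyond the test either, as given above. Against EV cells with IPTG, the libraries shared with the knockdown comparison, 0 of 7 members passed with edgeR in either treatment, where 1.16% of all genes passed in ethanol and 4.20% in dexamethasone. DESeq2 called 0 as well, and 1 member in ethanol and 0 in dexamethasone had an unadjusted p under 0.05. Myc in dexamethasone stood at 59.4 and 70.8 CPM in WT, between the 57.8 and 56.7 of EV with IPTG and the 91.2 and 94.4 of EV without IPTG (WT minus EV 0.18 ± 0.10 SE, adjusted p = 0.314). Ier2 in dexamethasone stood at 15.3 and 17.0 CPM in WT (0.15, adjusted p = 0.411), against 14.0 and 15.1 in EV with IPTG, and Ier3 at 21.1 and 19.99 (0.07, adjusted p = 0.632). Egr2 had the largest differences, 0.46 ± 0.34 in ethanol and 0.60 ± 0.32 (SE) in dexamethasone. A p above the threshold does not show that WT and EV cells were alike.

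Between mutant and wild-type NIPBL, which all share the WT libraries, 2 of the member tests passed. In ethanol 1 of 7 members passed in C1 (2.00% of all genes), 0 in C2 (2.00%) and 0 in C1-C2 (0.768%). With dexamethasone 1 member passed for C2 (5.17% of all genes) and 0 passed for C1 (5.33%) or C1-C2 (1.41%). Where edgeR called 0, DESeq2 called 0 as well, and 2 members (C2 in ethanol), 1 (C1-C2 in ethanol), 2 (C1 in dexamethasone) and 2 (C1-C2 in dexamethasone) had an unadjusted p under 0.05. DESeq2 had no adjusted p for Egr2 in the dexamethasone comparisons. Other alternatives did call members where the reported fit called 0, all lower: in C1 in dexamethasone Ier2 with the GC and length trend removed (-0.33, adjusted p = 0.0399), in C1-C2 in ethanol Ier2 with low-count genes kept (-0.37, adjusted p = 0.00623) or without WT replicate 1 (-0.53, adjusted p = 0.0285), and in C1-C2 in dexamethasone Egr2 with low-count genes kept (-1.33, adjusted p = 0.0186) or the trend removed (-1.36, adjusted p = 0.0403).

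Ier2 in ethanol was at 16.6 and 21.0 CPM in WT and at 14.8 and 14.0 in C1 (-0.38 ± 0.10 SE, edgeR adjusted p = 0.0478). WT replicate 2 is high, and without it the difference was -0.21 (adjusted p = 0.692). The call was also lost without either C1 library (adjusted p = 0.126 and 0.392) and with only these groups in the fit (adjusted p = 0.113).

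Egr2 read lower on average in all mutants than in WT in both treatments, but passed only in C2 in dexamethasone. In dexamethasone it was at 0.865 and 0.883 CPM in WT, 0.503 and 0.426 in C1, 0.348 and 0.263 in C2 and 0.384 and 0.312 in C1-C2, so no mutant library reached a WT library. The difference passed in C2 (-1.50 ± 0.34 SE, edgeR adjusted p = 0.0127), and was -0.90 in C1 (adjusted p = 0.101) and -1.33 in C1-C2 (adjusted p = 0.0529). In ethanol it was at 0.669 and 1.05 CPM in WT, 0.290 and 0.388 in C1, 0.612 and 0.256 in C2 and 0.587 and 0.551 in C1-C2, again below both WT libraries. How many of all genes are separated in this way between groups of 2 libraries was not counted. The ethanol differences were -1.33 in C1 (adjusted p = 0.0682, and 0.0424 with low-count genes kept), -0.95 in C2 (adjusted p = 0.197) and -0.59 in C1-C2 (adjusted p = 0.597). The C2 call in dexamethasone was lost with only these groups in the fit (adjusted p = 0.123), without WT replicate 1 (-1.51, adjusted p = 0.0598) and without C2 replicate 2 (-1.32, adjusted p = 0.171), DESeq2 gave no adjusted p for it, and the counts behind it are 50 and 46 in WT and 22 and 14 in C2.

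The hormone response was not shown to differ between states for any member. Between WT and EV with IPTG 0 of 7 passed (0.0118% of all genes), between C1 and WT 0 (0.0118%), between C2 and WT 0 (0.00591%) and between C1-C2 and WT 0 (0% of all genes), all with edgeR. DESeq2 called 0 in each, and an unadjusted p under 0.05 occurred once, for 1 member in C1 against WT, Ier5 at 0.24 ± 0.10 (SE). For Ier3, the member with the largest response, these differences of responses were 0.08, -0.11, -0.06 and -0.17 log2, each with a standard error of 0.10.

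**Figure D4:**
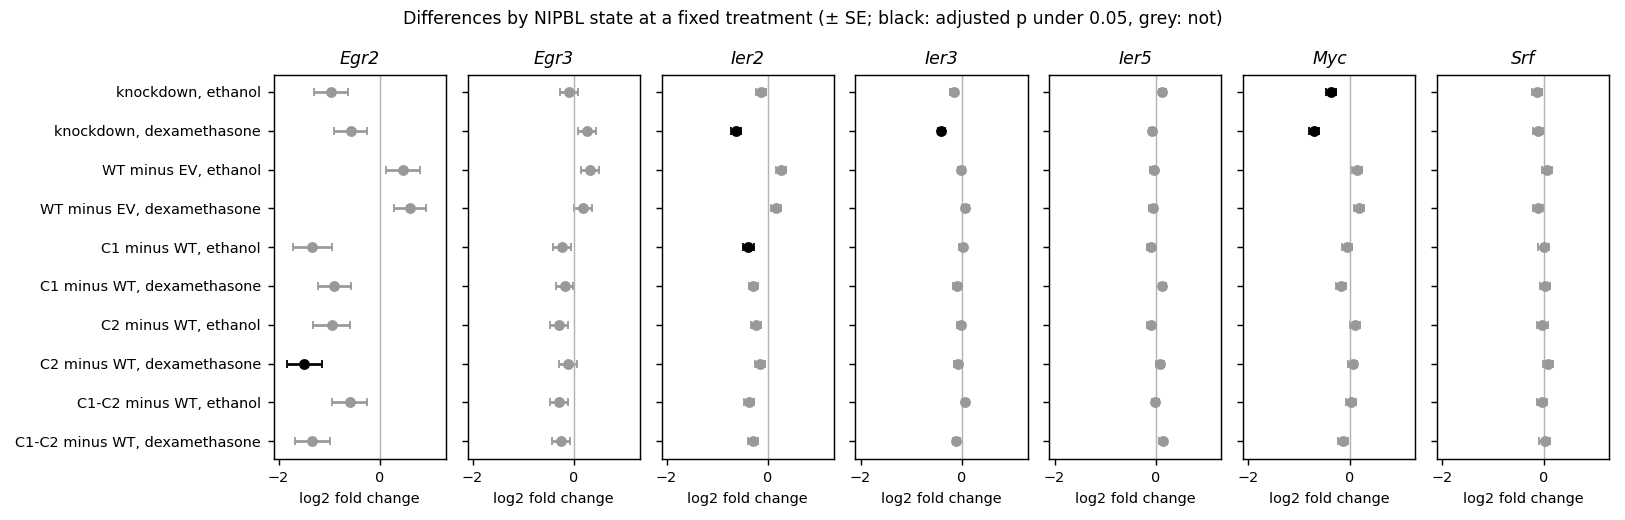
Log2 difference ± SE of each tested member between NIPBL states within a treatment (knockdown: EV with minus without IPTG; WT minus EV with IPTG; mutants minus WT), black where the adjusted p is under 0.05. Myc, Ier2 and Ier3 are black in the knockdown in dexamethasone, Myc in the knockdown in ethanol, Ier2 in C1 minus WT in ethanol and Egr2 in C2 minus WT in dexamethasone.

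The order of the 12 groups summarised these patterns. Ier3 ran from 91.0 CPM (mean, EV without IPTG in ethanol) to 19.1 (C1-C2 in dexamethasone), a 4.76-fold span, and its ethanol groups all stood above its dexamethasone groups. Ier5 spanned 2.33-fold, from EV with IPTG in ethanol to WT in dexamethasone. Egr3 spanned 2.05-fold, with EV without IPTG in dexamethasone the lowest group. Myc (1.62-fold) and Ier2 (1.69-fold) were highest in EV without IPTG in dexamethasone, and in both genes these 2 libraries did not overlap with the next group. The share of all genes with such a gap was not counted. Egr2 spanned 4.01-fold, from EV without IPTG in ethanol to C2 in dexamethasone. Srf had the smallest span, 1.32-fold. Of the 11 pairs of neighbours in each order, 9 overlapped in their libraries for Egr2, Egr3, Ier2, Ier3, Ier5 and Myc and 10 for Srf. The exact order of most neighbours is therefore not settled. Neighbours in a sorted order are the closest groups by construction, so these counts do not show whether groups differed.

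Across the 12 group means of log2 CPM, the members that the hormone lowered followed each other. Ier3 and Ier5 followed each other most closely (Pearson r = 0.988), Egr3 followed Ier5 (r = 0.901) and Ier2 followed Myc (r = 0.828). After each treatment was centred on its own mean, which removes the hormone difference, Ier3 and Ier5 no longer followed each other (r = -0.0263), and Ier3 instead followed Myc (r = 0.897) and Ier2 (r = 0.833). These are descriptions over 12 groups that share library blocks, depth differences and, within each construct, a cell line. Among 10615 or 10616 other named genes, the closest to each member over the 12 groups were Rprl3 and Wwtr1 for Ier3 (r = 0.998 and 0.996), Socs5 and Btg1 for Ier5 (both 0.994), Ndfip1 and Zfp932 for Egr3 (0.974 and 0.97), Hinfp and Cpq for Egr2 (0.957 and 0.955), Slc25a28 and Nuak2 for Ier2 (0.945 and 0.943), Cnksr3 and Srfbp1 for Myc (0.947 and 0.928) and Pkmyt1 and Aup1 for Srf (0.983 and 0.982). Such values are common for some members: 1424 genes exceeded r = 0.9 with Ier3, 1424 with Ier5, 700 with Egr3 and 578 with Srf, against 9 with Myc, 6 with Ier2 and 10 with Egr2. After centring, 96 genes exceeded r = 0.9 with Ier3, 66 with Myc and 55 with Ier2.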

How the data were processed

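RNA-seq of total RNA (ribosomal RNA depleted) was measured in 24 libraries. The submitters' processing notes name bcl2fastq 2.20, cutadapt 1.18, STAR 2.7.0f, the mm10 build, featureCounts and Subread 2.0.3. The authors deposited raw counts; the annotation release, strand setting and treatment of multiply aligned reads are not given in the sources used here. Libraries were grouped by title. The members, gene lists and tests were chosen with earlier results of these data known.

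Counts were fitted with the robust quasi-likelihood test of edgeR 4.0.16 (TMM factors, R 4.3.3), with a mean for each of 12 groups and 12 residual degrees of freedom, on the 16934 genes kept by its low-count filter. P-values were adjusted by Benjamini and Hochberg over all tested genes in each of 21 comparisons, and genes were called under 0.05. CPM values use TMM-scaled library sizes. Alternatives were RLE factors, no filter, replicate blocks, DESeq2 1.42.0, only the groups compared, each library left out, and removal of a smooth trend with GC content and length (lowess span 0.3). For the gene lists the last 2 were added after results were seen. Named list genes are up to 2 of the highest and 2 of the lowest changes per list and comparison among those called at a mean of at least 1 CPM whose libraries do not overlap. The fitting was tested on simulated data.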

Additional observations from a re-analysis of the deposited data

How the results depend on the processing

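Over 7 other settings and the omission of each of the 24 libraries, 1662 member fold changes stayed on their side of the threshold, 97 of them with a changed sign and no call. A call was gained by 63 and lost by 28. The reversed value was that of Srf in EV cells without IPTG, -0.011 with the GC and length trend removed. Counts of called genes stayed within 1.5 times the reported value in 132 cases and moved further in 119. The reported counts were 6438 (EV without IPTG), 5510 (EV with IPTG), 4823 (WT), 5447 (C1), 5500 (C2) and 5464 (C1-C2) for the hormone. They were 2270 (knockdown in ethanol), 2854 (knockdown in dexamethasone), 196 (WT against EV in ethanol), 712 (WT against EV in dexamethasone), 338 (C1 in ethanol), 902 (C1 in dexamethasone), 339 (C2 in ethanol), 875 (C2 in dexamethasone), 130 (C1-C2 in ethanol) and 238 (C1-C2 in dexamethasone) between NIPBL states. They were 29 (knockdown), 2 (WT against EV), 2 (C1), 1 (C2) and 0 (C1-C2) for differences of responses. Keeping genes with low counts gave, for comparisons of NIPBL states 349 (WT against EV in ethanol), 1211 (WT against EV in dexamethasone), 515 (C1 in ethanol), 1399 (C1 in dexamethasone), 569 (C2 in ethanol), 1540 (C2 in dexamethasone), 289 (C1-C2 in ethanol) and 517 (C1-C2 in dexamethasone) and for differences of responses 85 (knockdown), 13 (WT against EV), 22 (C1), 33 (C2) and 10 (C1-C2). A replicate block across all groups gave, for comparisons of NIPBL states 392 (WT against EV in ethanol), 1395 (WT against EV in dexamethasone), 585 (C1 in ethanol), 1621 (C1 in dexamethasone), 683 (C2 in ethanol), 1750 (C2 in dexamethasone), 299 (C1-C2 in ethanol) and 550 (C1-C2 in dexamethasone) and for differences of responses 71 (knockdown), 5 (WT against EV), 8 (C2) and 1 (C1-C2). A replicate block within treatment gave, for comparisons of NIPBL states 375 (WT against EV in ethanol), 1377 (WT against EV in dexamethasone), 575 (C1 in ethanol), 1573 (C1 in dexamethasone), 642 (C2 in ethanol), 1698 (C2 in dexamethasone), 278 (C1-C2 in ethanol) and 540 (C1-C2 in dexamethasone) and for differences of responses 77 (knockdown), 5 (WT against EV), 7 (C1), 9 (C2) and 2 (C1-C2). Removing the GC and length trend gave, for hormone comparisons 3842 (EV without IPTG), 3518 (EV with IPTG), 3516 (C1), 3365 (C2) and 3564 (C1-C2) and for differences of responses 1 (C1) and 2 (C2). Fitting only the groups compared gave, for comparisons of NIPBL states 179 (WT against EV in dexamethasone), 270 (C1 in dexamethasone), 153 (C2 in ethanol), 63 (C2 in dexamethasone), 205 (C1-C2 in ethanol) and 79 (C1-C2 in dexamethasone) and for differences of responses 53 (knockdown), 0 (C1), 0 (C2) and 1 (C1-C2). DESeq2 gave, for comparisons of NIPBL states 368 (C1-C2 in dexamethasone) and for differences of responses 62 (knockdown), 4 (WT against EV), 5 (C1) and 6 (C2). With 1 library left out the counts ran, for the hormone, from 4925 to 5378 (EV without IPTG), 3968 to 4344 (EV with IPTG), 3328 to 4435 (WT), 3686 to 4420 (C1), 4174 to 4357 (C2) and 3700 to 4311 (C1-C2). Between NIPBL states they ran from 1107 to 1527 (knockdown in ethanol), 1353 to 2168 (knockdown in dexamethasone), 64 to 90 (WT against EV in ethanol), 164 to 1446 (WT against EV in dexamethasone), 77 to 199 (C1 in ethanol), 214 to 1319 (C1 in dexamethasone), 65 to 409 (C2 in ethanol), 135 to 1530 (C2 in dexamethasone), 34 to 62 (C1-C2 in ethanol) and 43 to 149 (C1-C2 in dexamethasone). For differences of responses they ran from 7 to 24 (knockdown), 0 to 3 (WT against EV), 0 to 2 (C1), 0 to 4 (C2) and 0 (C1-C2). The causes were not tested. Scaling with RLE factors moved no count beyond 1.5 times.

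Whether the replicate numbers in the titles pair the libraries is not settled. The difference of replicate 2 minus replicate 1 was correlated between groups over 66 pairs of groups. These correlations ran from -0.32 to 0.518 (median 0.151, 38 above 0.1). For 11 of 12 groups the mean correlation with the other groups was positive. A shared effect of the replicate number is therefore possible, and the replicate block counts above are given here only. The replicate block across all groups added 16 member calls to those reported and that within treatment 13, and neither lost one. Those added across all groups were Egr2 (knockdown in ethanol, C1 in ethanol, C1-C2 in dexamethasone), Ier2 (C1 in dexamethasone, C1-C2 in both treatments, the hormone in WT and the difference of responses in the knockdown), Egr3 (hormone in EV with IPTG and C2), Myc (hormone in EV without IPTG, C1 and C1-C2) and Srf (hormone in C1, C2 and C1-C2). Keeping low-count genes added 10 and lost 0, fitting only the groups compared added 4 and lost 3, removing the trend added 13 and lost 3, DESeq2 added 1 and lost 0, and RLE factors changed none. DESeq2 gave no adjusted p for Egr2 in C1, C2 and C1-C2 against WT in dexamethasone. Depth limits Egr1, at 3 counts in all, and Egr2, at 9 to 55 counts per library; the other members have 122 or more.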
